A study of Mus musculus with 26 samples.

Results

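The miRNA precursors mmu-mir-132 and mmu-mir-212 are described here in the mouse hippocampus after a brief forced swim. They were chosen by name and are 2 of the 1054 miRNA entries in the deposited small RNA table, which holds 1360 entries in all. The tissue came from male C57BL/6J mice between 2 and 3 months old, and the labels name no transgene or engineered allele. The mice in the swim groups swam for 6 min in water of 18 °C and were sampled 45 min after the swim began, and control mice (CTRL) stayed in their home cage. Tissue of both hemispheres was split into dorsal hippocampus (dHC) and ventral hippocampus (vHC), which gave 26 libraries. Ventral tissue is represented by 8 control and 6 swim libraries, and dorsal tissue by 6 and 6. The labels place the libraries in 3 dated blocks without saying what the date marks. The study's methods name as many batches of library preparation and do not tie them to these dates. Each block had 2 libraries from every group, apart from block 1, which had 4 from vHC of control mice. The labels do not say which dHC and vHC libraries came from the same mouse, so the libraries were treated as separate samples. Each of the 12 dHC libraries directly follows in number a vHC library of the same condition and block. No label says that such a pair shares a mouse.

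A miRNA is cut from a hairpin precursor, and 1 arm of the hairpin is loaded into a protein complex that binds mRNAs and lowers their translation or stability. The seed, bases 2 to 8 of the mature miRNA, does most of the pairing with the target. In neurons, transcription of the locus of both precursors is driven by the transcription factor CREB and rises with synaptic activity and with BDNF. The mature miRNAs are known for roles in dendrite growth, spine density and memory. The question asked of these data is whether the pair differed after an acute stress, between the poles of the hippocampus and between blocks. Since 1 transcript holds both hairpins, it was also asked whether the counts under both names moved together.

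In mouse build GRCm38.p6, Mir212 lies on the plus strand at chr11:75173388-75173478 and Mir132 at chr11:75173682-75173747. The hairpins are 203 bases apart and both lie in intron 1 (chr11:75172598-75173977) of the long noncoding gene 1700016P03Rik, which has 3 exons. The mature sequences are shown because the shared seed is what links the members as regulators. They are from RefSeq, run 5′ to 3′, and have the seed in capitals.
mmu-miR-132-3p: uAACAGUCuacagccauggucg
mmu-miR-212-3p: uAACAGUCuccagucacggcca
mmu-miR-132-5p: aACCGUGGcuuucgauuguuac
mmu-miR-212-5p: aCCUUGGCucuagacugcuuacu

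The 3p arms share the seed AACAGUC, which only these 2 of the 1738 mature miRNAs in the RefSeq table carry. The seeds of the 5p arms, ACCGUGG and CCUUGGC, each belong to 1 mature miRNA of that table. Counted from the 5′ end, with the mmu-miR-132-3p base first, the 3p arms differ by A10C, C14U, U17C, U20C and G22A. They are identical at the other 17 of 22 positions (77.3%). The hairpins are shown because the counts are given per precursor and not per arm, and the mature arms are in capitals.
Mir132: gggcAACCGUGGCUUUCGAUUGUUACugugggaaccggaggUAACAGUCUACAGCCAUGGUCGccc
Mir212: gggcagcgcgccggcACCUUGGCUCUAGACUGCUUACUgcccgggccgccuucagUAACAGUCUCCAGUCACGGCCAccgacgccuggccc

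The hairpin of Mir132 has 66 bases and that of Mir212 has 91, and G or C makes up 57.6% and 69.2% of them. A change between the 5p and 3p arm of a precursor could not be read from these counts. Small RNA reads under a precursor's name can come from its mature arms. The counts are therefore not a measure of the hairpin or of the shared transcript.

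Both precursor entries had high counts in every library. The total count of miRNAs per library lay between 465387 and 4819724, the lowest in control dHC library 24. Counts of mmu-mir-132 were between 2943 and 30863 and those of mmu-mir-212 between 588 and 9120, and all of these were whole numbers. Normalized counts per 1000000 miRNA counts (CPM) averaged 6349 ± 938 (SD, n = 26) for mmu-mir-132 and 1495 ± 152 (SD, n = 26) for mmu-mir-212. Of the 463 entries with enough counts to be tested, these levels ranked 49 and 108 from the top. The mature arms are 22 or 23 bases long, so levels were compared without scaling by length, and a ratio of counts of different small RNAs is not a ratio of molecules. Neuronal miRNAs were present in all groups, which does not check the hippocampal, dHC or vHC labels. The 8 entries of the neuronal list (mir-124, mir-128 and mir-9) summed to between 175280 and 246442 CPM per library and none was at 0.

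In vHC the swim libraries of mmu-mir-132 lay between 4870 and 6163 normalized CPM, from just below the lowest control library to below the control median. In control vHC its normalized CPM was lowest at 4882, had a median of 6665 and was highest at 8228. In swim vHC the values were 4870, 5226, 5619, 5701, 5725 and 6163. The groups overlapped, since 3 control libraries, 1 of block 2 and both of block 3, fell below the highest swim library, and the mean was 6499 ± 1088 (SD, n = 8) in controls against 5550 ± 447 (SD, n = 6) after the swim.

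In dHC no such shift was seen for mmu-mir-132. Control dHC gave 5678, 6224, 6512, 6584, 6821 and 8440 normalized CPM. Swim dHC gave 5713, 5835, 6318, 6664, 7243 and 7751. The groups overlapped over nearly their whole range, and the highest control value belonged to library 24, the shallowest. The means were 6710 ± 934 (SD, n = 6) and 6587 ± 799 (SD, n = 6).

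The level of mmu-mir-212 varied less. In control vHC its normalized CPM was lowest at 1185, had a median of 1497 and was highest at 1746. In swim vHC it was 1247, 1278, 1322, 1501, 1537 and 1606. In control dHC it was 1472, 1478, 1544, 1555, 1561 and 1686. In swim dHC it was 1429, 1434, 1483, 1632, 1674 and 1688. All 4 groups overlapped, and the widest spread was that of control vHC, whose lowest libraries (7 and 9, at 1185 and 1197) were of block 1.

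**Figure D1:**
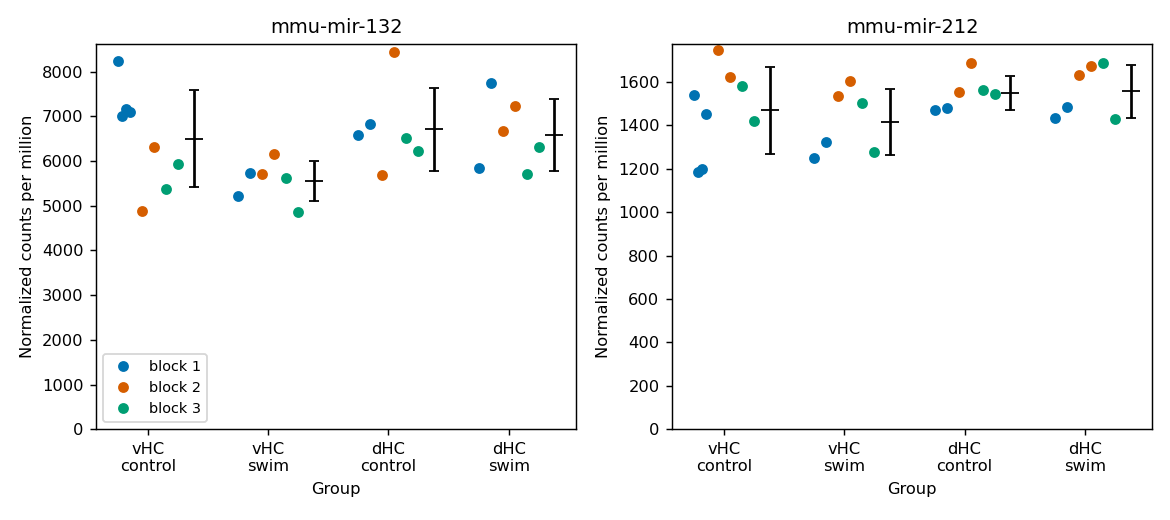
Normalized CPM (vertical axes, from 0) of mmu-mir-132 and mmu-mir-212 in each of the 26 libraries, by group, with points coloured by block and black bars for the group mean ± SD. The 4 groups overlap for both precursors, with mmu-mir-132 means between 5550 and 6710 and mmu-mir-212 means between 1415 and 1557.

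Neither precursor passed the test for stress. The edgeR quasi-likelihood model had terms for region, for stress, for the interaction of these and for 2 surrogate variables (estimates of unwanted variation), and p-values were adjusted over the 463 entries by the Benjamini-Hochberg method. In this model 0 entries (0%) passed an adjusted p of 0.05 for stress in either region, for both stress terms together or for the interaction, so the members share this with the whole table. The counts at an unadjusted p under 0.05 were 34 in vHC, 17 in dHC, 16 for both stress terms and 23 for the interaction. For mmu-mir-132 in vHC the log2 difference after the swim was -0.19 (SE 0.09), a fold of 0.877 with a 95% interval of 0.769 to 1.001 (unadjusted p = 0.0543, adjusted p = 0.629). Of the other entries, 153 had a larger log2 difference of either sign in vHC. For mmu-mir-212 in vHC it was -0.05 (SE 0.07), a fold of 0.968 with an interval of 0.870 to 1.077 (adjusted p = 0.816).

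In dHC the estimates were close to 0. The fold was 1.004 for mmu-mir-132, with a 95% interval of 0.872 to 1.156, and 0.995 for mmu-mir-212, with an interval of 0.888 to 1.115 (adjusted p = 0.999 for each). The intervals belong to this model and do not exclude values outside them. The stress effect in dHC less that in vHC was 0.19 on the log2 scale for mmu-mir-132 (interval -0.08 to 0.47) and 0.04 for mmu-mir-212 (interval -0.18 to 0.26), each with an adjusted p of 0.954. These intervals come from a more precise estimate than most: in vHC 6 of the 463 entries had a smaller standard error than mmu-mir-212 and 48 a smaller one than mmu-mir-132.

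The lower mean of mmu-mir-132 after the swim in vHC came mostly from block 1. There the 2 swim libraries, at 5226 and 5725 normalized CPM, were below all 4 control libraries, which lay between 7016 and 8228, a log2 difference of -0.43. It was not counted how many other entries separate swim from control vHC libraries in block 1. In block 2 the difference was 0.09 and in block 3 it was -0.11, and in both blocks swim and control libraries overlapped. With each library left out in turn, the fitted log2 difference over all blocks stayed between -0.24 and -0.10, the last without swim vHC library 15, and no call changed. In dHC the within-block differences of mmu-mir-132 were 0.0051, 0.0050 and -0.08. Those of mmu-mir-212 were -0.06, -0.10 and -0.11 in vHC and -0.02, 0.03 and 0.0006 in dHC.

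Between regions, the fitted values of both precursors were somewhat higher in dHC, without passing the test. In control mice the median of mmu-mir-132 was lower in dHC, at 6548 normalized CPM against 6665 in vHC. The model for region had group and block terms and no surrogate variables. In it 104 of the 463 entries (22.5%) passed an adjusted p of 0.05 between dHC and vHC in control mice and 94 (20.3%) in swim mice, and the members were not among them. In control mice the log2 difference of dHC from vHC was 0.08 (interval -0.13 to 0.29) for mmu-mir-132 and 0.05 (interval -0.11 to 0.22) for mmu-mir-212, with edgeR adjusted p-values of 0.609 and 0.636. In swim mice it was 0.24 (SE 0.11, interval 0.02 to 0.47) for mmu-mir-132, with an unadjusted p of 0.0330 and an adjusted p of 0.117. For mmu-mir-212 it was 0.14 (interval -0.03 to 0.31, adjusted p = 0.265).

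The region difference of mmu-mir-132 in swim mice had the same sign in each block. Its 2 dHC libraries were above its 2 vHC libraries in block 1 by 0.30, in block 2 by 0.23 and in block 3 by 0.20 on the log2 scale. How many other entries separate in this way was not counted. In the fit for swim mice, 224 of 463 entries had a larger region difference of either sign than mmu-mir-132. In control mice the order of its dHC and vHC libraries was not kept: the difference was -0.13 in block 1, 0.32 in block 2 and 0.17 in block 3. With surrogate variables in place of block, mmu-mir-132 passed the test, with a log2 difference of 0.78 in control mice (adjusted p = 0.0442) and 0.97 in swim mice (adjusted p = 0.0171). These sizes exceed the difference of the group means, and the second surrogate variable had 91.1% of its variance between regions. The medians of marker lists differed between regions as well, with overlapping ranges. The 3 oligodendrocyte entries (mir-219a-1, mir-219a-2 and mir-338) summed to a median of 4006 CPM in control vHC (3371 to 5014) and 5544 in control dHC (4611 to 7385), with none at 0. After the swim the medians were 4079 in vHC (3515 to 4847) and 6216 in dHC (4670 to 6962). The neuronal list was lower in dHC, with medians of 194195 against 203990 CPM in control and 190966 against 202470 in swim mice. Medians of the choroid plexus list were higher in dHC, and those of the blood cell and immune lists were lower. The part of these in the region values was not tested. In bulk tissue, fewer cells of a type and less RNA per cell cannot be told apart.

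**Figure D2:**
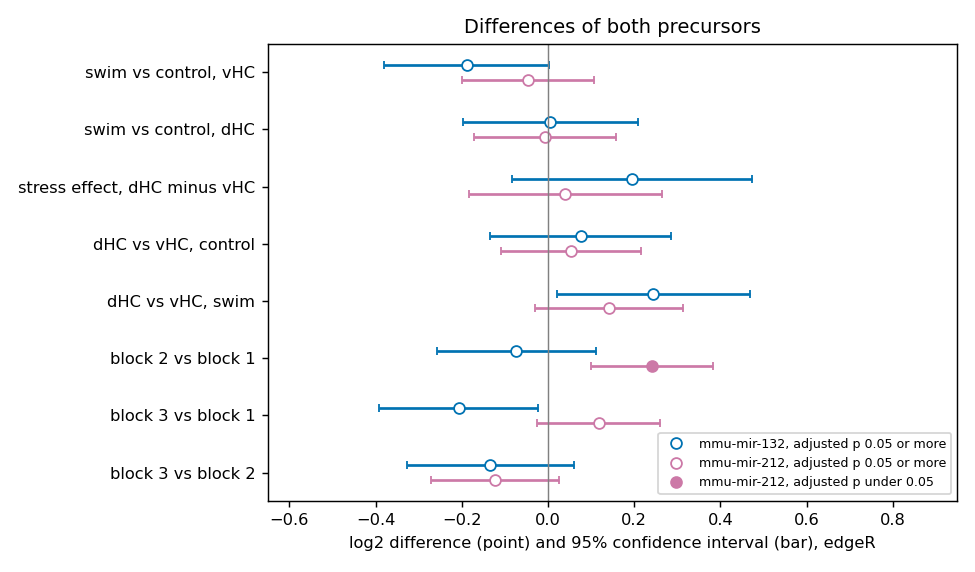
Fitted log2 differences (points, horizontal axis) of mmu-mir-132 and mmu-mir-212 for each comparison, with 95% confidence intervals as bars; filled points have an edgeR adjusted p under 0.05. Only mmu-mir-212 between blocks 2 and 1, at 0.24, is filled, and both stress estimates in dHC lie next to 0.

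Against block 1 the fitted values of mmu-mir-212 were above 0 and those of mmu-mir-132 below 0 (with the size factors of DESeq2, mmu-mir-132 was at 0.01 in block 2), and only mmu-mir-212 in block 2 passed the test. In the fit with group and block, 246 of 463 entries (53.1%) differed among the 3 blocks at an adjusted p under 0.05, so a call for block is shared with about as many entries as not. By this test mmu-mir-212 differed (edgeR adjusted p = 0.0159), and mmu-mir-132 did not pass (adjusted p = 0.135). Against block 1, where 243 entries (52.5%) were called for block 2, mmu-mir-212 was higher in block 2 by 0.24 (SE 0.07, fold 1.18, interval 1.07 to 1.30, adjusted p = 0.00499). Without the filter on low counts this call was lost, at 0.23 with an adjusted p of 0.144. Its libraries were at 1537 to 1746 normalized CPM in block 2, with a median of 1628, and at 1185 to 1541 in block 1, with a median of 1443, so the blocks overlapped by 1 library of each. Within each of the 4 groups, every block 2 library was above every block 1 library. Each side had 2 libraries, except for 4 in block 1 of control vHC. How many other entries separate in this way was not counted. The difference of mmu-mir-212 was 0.33 in control vHC, 0.29 in swim vHC, 0.13 in control dHC and 0.18 in swim dHC. The medians of the marker lists also differed between blocks, with overlapping ranges. For the neuronal list they were 203990, 198551 and 196700 CPM in blocks 1, 2 and 3. For the blood cell list they were 847, 826 and 782, and for the choroid plexus list 2604, 2874 and 2497. The oligodendrocyte entries summed to a median of 3848 CPM in block 1 (3371 to 6432), 5232 in block 2 (4118 to 7385) and 4886 in block 3 (4038 to 6962). The immune entries mir-223 and mir-150 summed to 1903 (855 to 2552), 1175 (698 to 1630) and 1133 (677 to 1349). No entry of the oligodendrocyte or immune list was at 0, and the part of the marker lists in the block values was not tested.

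For block 3 against block 1, where 241 entries (52.1%) were called, mmu-mir-132 was at -0.21 (SE 0.09, interval -0.39 to -0.02, edgeR adjusted p = 0.0573) and mmu-mir-212 at 0.12 (SE 0.07, adjusted p = 0.148). Neither passed in this fit. On the same 26 libraries mmu-mir-212 passed with DESeq2 (0.18, adjusted p = 0.0257), with its size factors in edgeR (0.18, adjusted p = 0.0388) and with TMMwsp (0.21, adjusted p = 0.0202), and mmu-mir-132 passed with depth (log2 of all miRNA counts) as a covariate (-0.22, adjusted p = 0.0301). The value of mmu-mir-132 passed without swim vHC library 5 (-0.24, adjusted p = 0.0451), swim dHC library 6 (-0.25, adjusted p = 0.0211) or control dHC library 18 (-0.22, adjusted p = 0.0472). That of mmu-mir-212 passed without control vHC library 1 (0.19, adjusted p = 0.0226), 17 (0.17, adjusted p = 0.0447) or 23 (0.17, adjusted p = 0.0456), swim vHC library 29 (0.19, adjusted p = 0.0397) or swim dHC library 16 (0.18, adjusted p = 0.0495). For block 2 against block 1, mmu-mir-132 was at -0.07 (interval -0.26 to 0.11, edgeR adjusted p = 0.496). Between blocks 2 and 3, 0 of 463 entries were called (0%) by edgeR and by DESeq2, with 51 at an unadjusted p under 0.05 in edgeR. Between them the members differed by -0.13 (mmu-mir-132) and -0.12 (mmu-mir-212).

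The ratio of the precursor counts does not depend on the scaling of libraries. Over the 26 libraries the count of mmu-mir-132 was 4.29 ± 0.754 (SD, n = 26) times that of mmu-mir-212, between 2.80 and 5.98. The error of counting on the log2 ratio was small, with a standard error between 0.02 and 0.07 and a median of 0.03. Libraries of the same group and block differed with an SD of 0.18.

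Each library's ratio can be set out by block. In block 1 the control vHC libraries gave 4.88, 5.34, 5.92 and 5.98 and the swim vHC libraries 4.19 and 4.33, with 4.47 and 4.61 in control dHC and 4.07 and 5.23 in swim dHC. In block 2 control vHC gave 2.80 and 3.89, swim vHC 3.71 and 3.84, control dHC 3.65 and 5.01, and swim dHC 4.08 and 4.33. In block 3 control vHC gave 3.40 and 4.18, swim vHC 3.74 and 3.81, control dHC 4.03 and 4.17, and swim dHC 3.38 and 4.42. The highest ratios, 5.92 and 5.98, and the lowest, 2.80, were all of control vHC, so this group spanned the range of the series. The ratio of 5.01 belonged to the shallowest library, where the 95% interval for counting error was 4.58 to 5.47.

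The ratio was lower in blocks 2 and 3 than in block 1. For block 1 the log2 ratio had a mean of 2.28 ± 0.20 (SD, n = 10). For block 2 the mean was 1.95 ± 0.24 (SD, n = 8), and for block 3 it was 1.95 ± 0.14 (SD, n = 8). Against block 1 this is a fold of 0.796 in block 2 (two-sided exact permutation p = 0.00464, adjusted over the 8 ratio tests p = 0.0186) and of 0.798 in block 3 (exact permutation p = 0.00126, adjusted p = 0.0101). Between blocks 3 and 2 the log2 difference was 0.0038 (exact permutation p = 0.971). Block 1 held more control vHC libraries than the others, so labels were also exchanged only within groups, a test chosen after the data were seen. The differences were then -0.28 for block 2 (adjusted permutation p = 0.0259, exact) and -0.28 for block 3 (adjusted permutation p = 0.00988, exact). The mean was below that of block 1 in each group, by a log2 difference from -0.09 (control dHC) to -0.74 (control vHC) for block 2 and from -0.15 to -0.55 for block 3. Libraries overlapped with those of block 1 in control dHC and swim dHC for block 2, and in swim dHC for block 3. The value was most negative in control vHC, and the difference between groups was not tested.

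**Figure D3:**
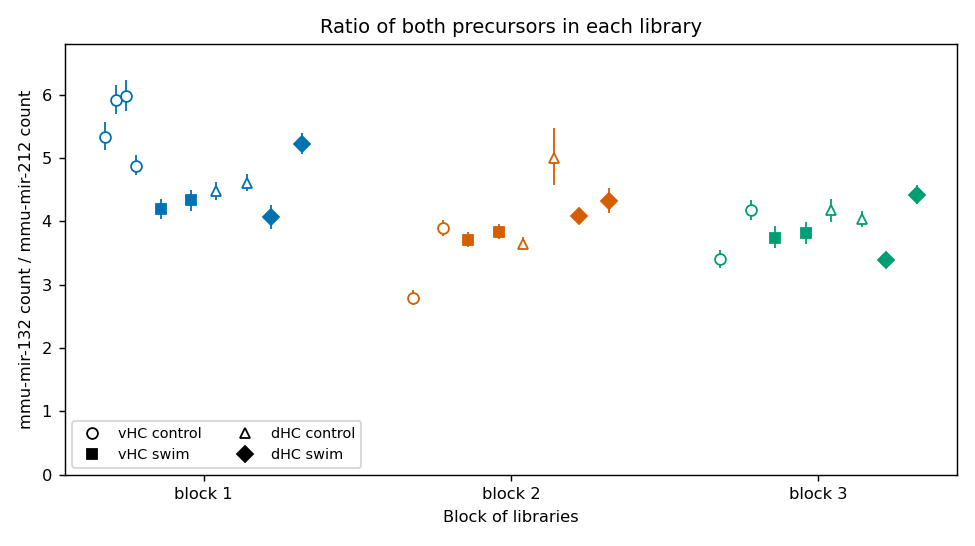
Count of mmu-mir-132 divided by the count of mmu-mir-212 (vertical axis, from 0) in each library, by block, with the group as the symbol (open for control, filled for swim) and bars for the 95% interval of counting error. The 4 control vHC libraries of block 1, at 4.88 to 5.98, stand above the 2 swim vHC libraries of that block, and ratios in blocks 2 and 3 lie lower.

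Stress and region left no difference in the ratio that passed a test. In vHC the mean log2 ratio was 1.97 ± 0.09 (SD, n = 6) after the swim and 2.14 ± 0.39 (SD, n = 8) in controls, a fold of 0.892 (two-sided exact permutation p = 0.340, adjusted p = 0.679). Within blocks the difference was -0.37 in block 1, where no swim library overlapped a control library, 0.19 in block 2 and 0.0029 in block 3. With labels exchanged only within blocks it was -0.06 (exact permutation p = 0.635). In dHC the log2 ratio was 2.08 ± 0.20 (SD, n = 6) against 2.11 ± 0.16 (SD, n = 6), a fold of 0.980 (exact permutation p = 0.786). The stress difference in dHC less that in vHC was 0.14 (exact permutation p = 0.493). Between dHC and vHC the log2 ratio differed by -0.04 in control mice (exact permutation p = 0.845) and by 0.10 in swim mice (exact permutation p = 0.316), and over the 8 tests the adjusted p-values of these were between 0.679 and 0.966.

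The hairpins share a transcript, but the counts under their names did not rise and fall together over libraries. These counts do not measure the transcript, so its level could not be read from them. The log2 normalized CPM of mmu-mir-132 and mmu-mir-212 had a Pearson's r of 0.07 (permutation p = 0.724, 100000 resamples) and a Spearman's rho of 0.03 (permutation p = 0.902) over the 26 libraries. Without the 2 libraries farthest from the median of mmu-mir-132 r was -0.07, and without the 2 farthest from that of mmu-mir-212 it was 0.29. Within blocks r was 0.37 (block 1, n = 10), 0.15 (block 2, n = 8) and 0.42 (block 3, n = 8), all above the pooled value. Within groups it went from -0.54 in control vHC (n = 8) through 0.03 in swim dHC (n = 6) and 0.59 in control dHC (n = 6) to 0.80 in swim vHC (n = 6), and these differences were not tested. In order of likeness to mmu-mir-132, mmu-mir-212 had rank 183 of the 462 other entries tested. After group and block means were taken out of the values, r was 0.05 and the rank 156. This r was 0.22 without the 2 libraries then farthest from the median of mmu-mir-132. It was 0.17 without the 2 farthest from that of mmu-mir-212.

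Other entries followed each member more closely. The entries most like mmu-mir-132 over the 26 libraries were mmu-mir-181b-1 (r = 0.70), mmu-mir-181b-2 (r = 0.70) and mmu-mir-26b (r = 0.67). The mmu-mir-181b entries are copies of 1 miRNA, so their reads may be shared. With group and block means taken out, mmu-mir-222 came first (r = 0.90, rho = 0.83), before mmu-mir-139 (r = 0.73) and mmu-mir-26b (r = 0.71). The level of mmu-mir-222 was also similar, at a mean of 7097 normalized CPM and rank 46. Without the 2 libraries farthest from the median of mmu-mir-132, r was 0.84 with mmu-mir-222, 0.64 with mmu-mir-139 and 0.64 with mmu-mir-26b. Before the means were taken out, r with mmu-mir-222 was 0.23. For mmu-mir-212 the most alike over all libraries were mmu-mir-5129 (r = 0.74), mmu-let-7k (r = 0.73) and mmu-mir-504 (r = 0.70), which had means of 18.8, 50.0 and 84.8 normalized CPM. With the means taken out they were mmu-mir-501 (r = 0.49), mmu-mir-187 (r = 0.46) and mmu-mir-493 (r = 0.45). These were weaker than the likeness of mmu-mir-222 to mmu-mir-132, and without the 2 libraries farthest from the median of mmu-mir-212 they were 0.29, 0.39 and 0.41. The all-library partners of mmu-mir-212 were at 0.39, 0.45 and 0.38 once the means were taken out. These correlations rank 462 entries over the same libraries and are given as a description, with no test.

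**Figure D4:**
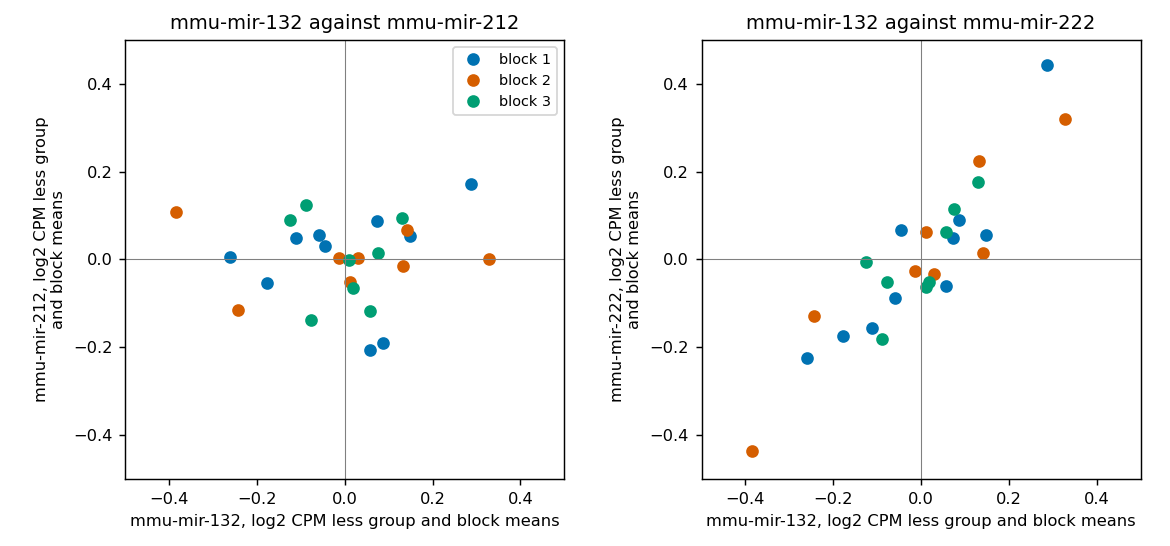
Log2 normalized CPM of mmu-mir-132 in each of the 26 libraries, less its group and block means (horizontal axes), against the same measure of mmu-mir-212 and of mmu-mir-222 (vertical axes), coloured by block. The points for mmu-mir-212 show no trend (r = 0.05), whereas those for mmu-mir-222 lie along a rising line (r = 0.90).

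A list of other miRNAs linked to neuronal activity or plasticity gave the same picture for stress. Of its 33 entries 32 were tested, among them mir-134, which limits the size of dendritic spines, and mir-124, the most neuron-specific of them. None passed for stress in vHC or dHC. Their median log2 difference was -0.0035 in vHC and -0.03 in dHC, beside -0.03 and 0.02 for all 463 entries. Some miRNAs, such as mir-124 and mir-9, are listed as several copies with nearly equal values. The 32 entries are therefore not 32 separate miRNAs, and both list medians lie at the values of the mir-124 copies. In vHC 0 and in dHC 2 of the 32 entries had an unadjusted p under 0.05 (mir-125b-1 at -0.23 and mir-125b-2 at -0.22, copies of 1 miRNA, each with an edgeR adjusted p of 0.982). In vHC the values of the list ran from -0.25 (mir-329) to 0.29 (mir-183).

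Some entries of the same list did pass for region, where the members did not. In control mice 5 of 32 (15.6%) were called, 2 higher and 3 lower in dHC, and in swim mice 6 of 32 (18.8%), 2 higher and 4 lower, near the 22.5% and 20.3% of all entries. In control mice mir-485 was at -0.83 (edgeR adjusted p = 1.58e-05), mir-335 at -0.74 (adjusted p = 6.67e-05) and mir-495 at -0.43 (adjusted p = 0.00866), all lower in dHC. The higher ones were mir-219a-1 at 0.99 and mir-219a-2 at 0.47, which are also the oligodendrocyte entries named above. In swim mice mir-335 was at -1.03 (adjusted p = 1.96e-06) and mir-219a-2 at 0.70. The entries named here all passed the test and were picked by smallest p. The region differences of mmu-mir-132 and mmu-mir-212 were between 0.05 and 0.24. In control mice 389 and 406 of 463 entries had a larger difference of either sign than these members, and in swim mice 224 and 302.

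For block, 15 of the 32 (46.9%) were called, beside 53.1% of all entries. In block 2 against block 1 there were 17 of 32 (53.1%), beside 52.5% of all entries, and in block 3 against block 1 there were 14 of 32 (43.8%), beside 52.1%. By smallest p, the block 2 entries were mir-335 at -0.70, mir-125b-1 at 0.63, mir-125b-2 at 0.59, mir-379 at -0.73 and mir-384 at -0.46. In block 3 they were mir-182 at -1.20, mir-183 at -1.02, mir-384 at -0.46, mir-335 at -0.50 and mir-137 at -0.44. The rise of mmu-mir-212 in block 2, by 0.24, is smaller in size than these, and 301 of 463 entries had a larger difference of either sign.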

How the data were processed

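Small RNA was measured in 26 libraries by Nextflex v3 preparation and single-end Illumina sequencing. Per the study's methods, cutadapt removed adapters, reads of identical sequence including the molecular tag were merged, tags were cut off, and Sports 1.0 assigned sequences to annotated RNAs. The submitters' processing notes name GRCm38. The deposited table gives expected counts of each annotated RNA as the authors left them, not normalized, and 29.5% of the values were not whole. They were rounded before edgeR, sva and DESeq2, since the design had assumed whole counts. A total of 0 columns could not be matched to a sample. No 2 columns were identical, and replicate libraries differed by more than sampling noise. Where labels do not name separate mice, p-values measure the spread between libraries only.

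Models were fitted with edgeR 4.0.16 under R 4.3.3, and surrogate variables came from sva 3.50.0. For alternatives DESeq2 1.42.0 and limma 3.58.1 were used. Permutation tests ran in Python 3.11.15. Entries were kept by filterByExpr (minimum count 10, minimum total 15), normalized by TMM and adjusted over 463 entries by the Benjamini-Hochberg method, with 95% intervals. Stress was fitted with 2 surrogate variables, after the study's methods, and region and block with group and block terms. Log2 ratios of the precursor counts were compared in 8 two-sided exact permutation tests. Log2 CPM for correlations had a prior count of 2. Intervals of ratios cover counting error only. The edgeR fit was tried on simulated counts for swim against control in vHC only. These counts had no region or block effects, and the other tests were not tried on simulated data. The miRNAs named were the members, up to 5 called entries of the activity list by smallest p and the 3 entries most like each member. The members and lists were chosen with earlier results of these data known. Alternatives changed the normalization, tool, filter, covariates, library sizes, libraries and form of the ratio test.

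Other marker lists were summed per library in CPM of all miRNA counts. The 4 blood cell entries (mir-451a, mir-144, mir-486a and mir-486b) summed to between 566 and 1049 and the 6 choroid plexus entries to between 1594 and 5534. Of the 3 names on the microglia and immune list 2 matched an entry (mir-223 and mir-150), and these summed to between 677 and 2552. The sum leaves out mir-142, which the table lists as mir-142a and mir-142b.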

Additional observations from a re-analysis of the deposited data

How the results depend on the processing

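In every alternative run, 0 entries passed for stress or its interaction, and neither precursor did. The stress values near 0 changed sign. With TMMwsp normalization, mmu-mir-212 was at 0.0035 in vHC, mmu-mir-132 at -0.012 in dHC and the interaction of mmu-mir-212 at -0.030. With the libraries of 1 region only, mmu-mir-212 was at 0.0039 in vHC and 0.013 in dHC. For mmu-mir-132 in dHC the value was -0.023 with DESeq2, -0.024 with its size factors, -0.030 without the filter, -0.028 with block in place of surrogate variables, -0.026 with neither and -0.022 with only an intercept in the null model. In these last 3 fits mmu-mir-212 in dHC was at 0.0054, 0.0071 and 0.0075. The interaction of mmu-mir-212 was -0.020 with DESeq2 and -0.019 with its size factors.

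With surrogate variables in place of block, the region values of mmu-mir-132 rose to 0.78 and 0.97 and passed, those of mmu-mir-212 became -0.060 and -0.020, and 59 entries were called in swim mice in place of 94. Without block, 67 entries were called in control and 56 in swim mice. The cause was not tested. The block call of mmu-mir-212 was lost without the filter (adjusted p = 0.302 over 3 blocks, and 0.23 with an adjusted p of 0.144 for block 2). Its block 3 value passed with DESeq2 (0.18), its size factors (0.18) and TMMwsp (0.21). The block 3 value of mmu-mir-132 passed with depth as a covariate (-0.22, adjusted p = 0.0301), and its block 2 value was 0.0062 with DESeq2 and 0.0063 with its size factors. The region ratio in control mice was 0.072 with labels exchanged within blocks.

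With each library left out, log2 values ran from -0.073 to 0.037 (mmu-mir-212, stress in vHC), -0.033 to 0.053 (mmu-mir-132, stress in dHC), -0.039 to 0.036 (mmu-mir-212, stress in dHC) and -0.051 to 0.065 (mmu-mir-212, interaction). For block they ran from -0.12 to 0.059 (mmu-mir-132, block 2), -0.25 to -0.12 (mmu-mir-132, block 3) and 0.092 to 0.19 (mmu-mir-212, block 3), and between blocks 2 and 3 from 0 to 1 entries were called (1 without control vHC library 1). Ratio differences ran from -0.091 to 0.035 (stress in dHC), -0.063 to 0.057 (blocks 3 and 2) and -0.13 to 0.028 (region, control). The lower ratio of blocks 2 and 3 held in all 29 alternatives, with adjusted permutation p-values up to 0.0498.

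No paired analysis was possible because the library numbers in the labels are all different and no label ties a dHC to a vHC library.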
